A study of Mus musculus with 17 samples.

Results

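Lysosomes are the acidic organelles in which a cell digests the material it takes up and the parts of itself that it recycles. The gene set described here holds 35 mouse lysosomal genes, chosen by name for their place in the lysosome and found by symbol. The rule holds no measured value, but the choice was made with earlier results of these data known. All 35 were found among the 52373 Ensembl gene identifiers that were listed in every library. They comprise 16 hydrolases, 3 other proteins of the lysosomal lumen, 7 lysosomal membrane proteins, 8 subunits of the vacuolar ATPase (V-ATPase) and the transcription factor Tfeb.

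The study followed astrocytes of the corpus callosum, the white matter that joins both hemispheres, through the loss and return of myelin. Cuprizone is a copper chelator that kills oligodendrocytes when mice eat it. Ribosomes carrying an HA tag were pulled down from the dissected tissue, and the RNA recovered with them was sequenced. The values thus measure the pulled-down RNA, which is meant to be ribosome-bound mRNA. All mice were male and of the genotype GFAP-Cre+/- Rpl22HA/wt, in which Cre recombinase under the GFAP promoter switches on the tagged ribosomal protein Rpl22, and all were 8 to 9 weeks old at the start. Both arms therefore carried the Cre and the tagged allele, and the tag marks every cell with a history of GFAP-Cre activity rather than astrocytes by definition. The cuprizone groups ate chow with 0.2% cuprizone for 5 weeks and were taken at 5 weeks, at 5.5 weeks (0.5 weeks after withdrawal) and at 7 weeks (2 weeks after withdrawal). The mock groups were matched in age and ate normal chow.

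Hydrolases and their lumenal helpers are made at the endoplasmic reticulum and are carried to the lysosome by sorting receptors. The V-ATPase pumps protons into the lysosome. It consists of a membrane sector, V0, and a cytosolic sector, V1, which hydrolyses ATP. Tfeb is a transcription factor of lysosomal genes and is known to bind a short promoter element built on an E-box. In the brain, microglia that have eaten myelin debris are rich in cathepsins and in the membrane protein Cd68, while astrocytes, oligodendrocytes and neurons all make lysosomes of their own.

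Of the 17 libraries, 8 repeat many values of another library of their group with a small whole number added, so they were not used as samples. Of the 280 values of the 35 genes in those 8 libraries, 252 lay 1 to 10 counts above the library that was repeated and 27 differed by more than 10. Mock library 1 of 5 weeks held 15 of those 27. In it 46.6% of genes with at least 500 counts lay 1 to 10 counts above mock library 2, the lowest share of the 8. Setting the 8 aside left 1 library per group at 5 and 7 weeks, and at 5.5 weeks 3 cuprizone libraries (1, 2 and 3) and 2 mock libraries (1 and 3). Total counts in these 9 libraries ranged from 20797535 to 30400048. The 5-week libraries form batch 1 and all others batch 2, so the 5-week comparison cannot be told apart from its batch when it is set against the later weeks. Astrocyte markers were present in every library: the summed level of 10 of them was 18002 CPM (counts scaled by library size with TMM factors) after cuprizone and 9043 CPM in mock at 5 weeks. That difference came mainly from Gfap, with 9285 CPM after cuprizone, against 901 CPM in mock, while 6 of the 10 were below mock and the median log2 ratio of the 10 was −0.31. Markers of other cells were present as well, with 12 oligodendrocyte markers summing to 10104 CPM after cuprizone and 16036 CPM in mock, and 10 neuronal markers to 9081 CPM after cuprizone and 13403 CPM in mock. In such bulk RNA, a change in the number of cells of a type and a change in RNA per cell cannot be told apart.

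Per kilobase of exon, the most abundant of the 35 transcripts in the 5.5-week mock libraries was Psap, the precursor of the saposins that help hydrolases reach their lipids, with a mean of 810.3 CPM per kilobase. The V-ATPase subunits Atp6v0d1 and Atp6v1b2 followed, with 281 and 244 CPM per kilobase, and then the highest hydrolase, the cysteine protease Ctsb, at 164. The other V-ATPase subunits lay below Ctsb, from 157 for Atp6v1e1 to 28.6 for Atp6v1h. At the other end stood Galc, the galactocerebrosidase that digests a myelin lipid, with 1.26 CPM per kilobase, and the protease Ctsh with 0.276. The RNA pulled down from mock white matter thus held V-ATPase and Psap mRNA at levels far above those of Ctss (4.51 CPM per kilobase) and Cd68 (2.00). Whether each of these mRNAs sat on tagged ribosomes was not tested.

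Promoter stretches are shown because Tfeb is among the 35 genes and its known element can be looked for in the others. RefSeq windows of 300 bases (250 before and 50 after the gene start, build GRCm38.p6) existed for 29 of the 35 genes. The 7-base motif TCACGTG, read on both strands, occurred in 9 of these 29 windows (31.0%), against 4.29% of the 27025 genes with a window. Its 8-base palindrome TCACGTGA, every copy of which also counts as a copy of the shorter motif, occurred in 5 of the 29 (17.2%), against 1.12% of all genes. Among 49 lysosomal genes outside the set with a window, 10 (20.4%) had the shorter motif and 6 (12.2%) the palindrome. The 9 genes of the set with the shorter motif were Ctsa, Ctsd, Gaa, Glb1, Lamp1, Mcoln1, Atp6v0b, Atp6v0d1 and Atp6v1a. Capitals mark each copy of the motif, on either strand, before the gene start. The stretches are chr8:13159084-13159160 (plus strand) for Lamp1, chr8:3500432-3500495 (plus strand) for Mcoln1, chr7:142387904-142387941 (minus strand) for Ctsd, chr11:119267807-119267843 (plus strand) for Gaa, chr4:117887330-117887381 (minus strand) for Atp6v0b and chr16:44139369-44139406 (minus strand) for Atp6v1a, each written 5′ to 3′ along its gene.
Lamp1: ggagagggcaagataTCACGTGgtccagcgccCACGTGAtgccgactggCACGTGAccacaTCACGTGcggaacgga
Mcoln1: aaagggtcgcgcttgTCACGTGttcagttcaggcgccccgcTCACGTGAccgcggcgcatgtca
Ctsd: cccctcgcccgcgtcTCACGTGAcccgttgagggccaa
Gaa: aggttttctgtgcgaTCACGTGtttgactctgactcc
Atp6v0b: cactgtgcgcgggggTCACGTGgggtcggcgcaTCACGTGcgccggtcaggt
Atp6v1a: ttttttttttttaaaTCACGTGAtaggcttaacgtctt
Lamp1 had 4 copies in its window, Mcoln1, Ctsd and Atp6v0b had 2 each (of which 1 is shown for Ctsd), and Gaa and Atp6v1a had 1. A match describes the letters of the window and was not tested as a binding site. The genes with and without the motif are set beside their values at 5 weeks further on.

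The 5-week comparison addresses the end of cuprizone feeding, when demyelination is acute. Most hydrolases and 3 of the 4 V0 subunits of the V-ATPase were lower in the cuprizone library than in the mock library, while the cytosolic V1 subunits were near the mock level and Cd68 was higher. Of the 34 genes measured (5 CPM or more in either library, a limit that Ctsh missed), 17 were at least 2-fold lower and 1 was at least 2-fold higher. Among all 11513 genes measured, 13.0% were at least 2-fold lower and 7.88% at least 2-fold higher. The median log2 ratio of cuprizone over mock was −1.05 over the 34 genes and −0.07 over all genes. With 1 library per group there is no measure of spread between mice and no p-value is given. The 95% intervals of ratios (exact, Clopper-Pearson) cover counting error only. Among all genes at least 2-fold apart, 37.7% were higher after cuprizone with TMM scaling and 49.8% with plain CPM, and the all-gene median was 0.10 with plain CPM. The number of lysosomal genes at least 2-fold lower was 17 with TMM scaling and 16 with plain CPM, and the number at least 2-fold higher was 1 and 2 (Ctss joining Cd68).

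**Figure D1:**
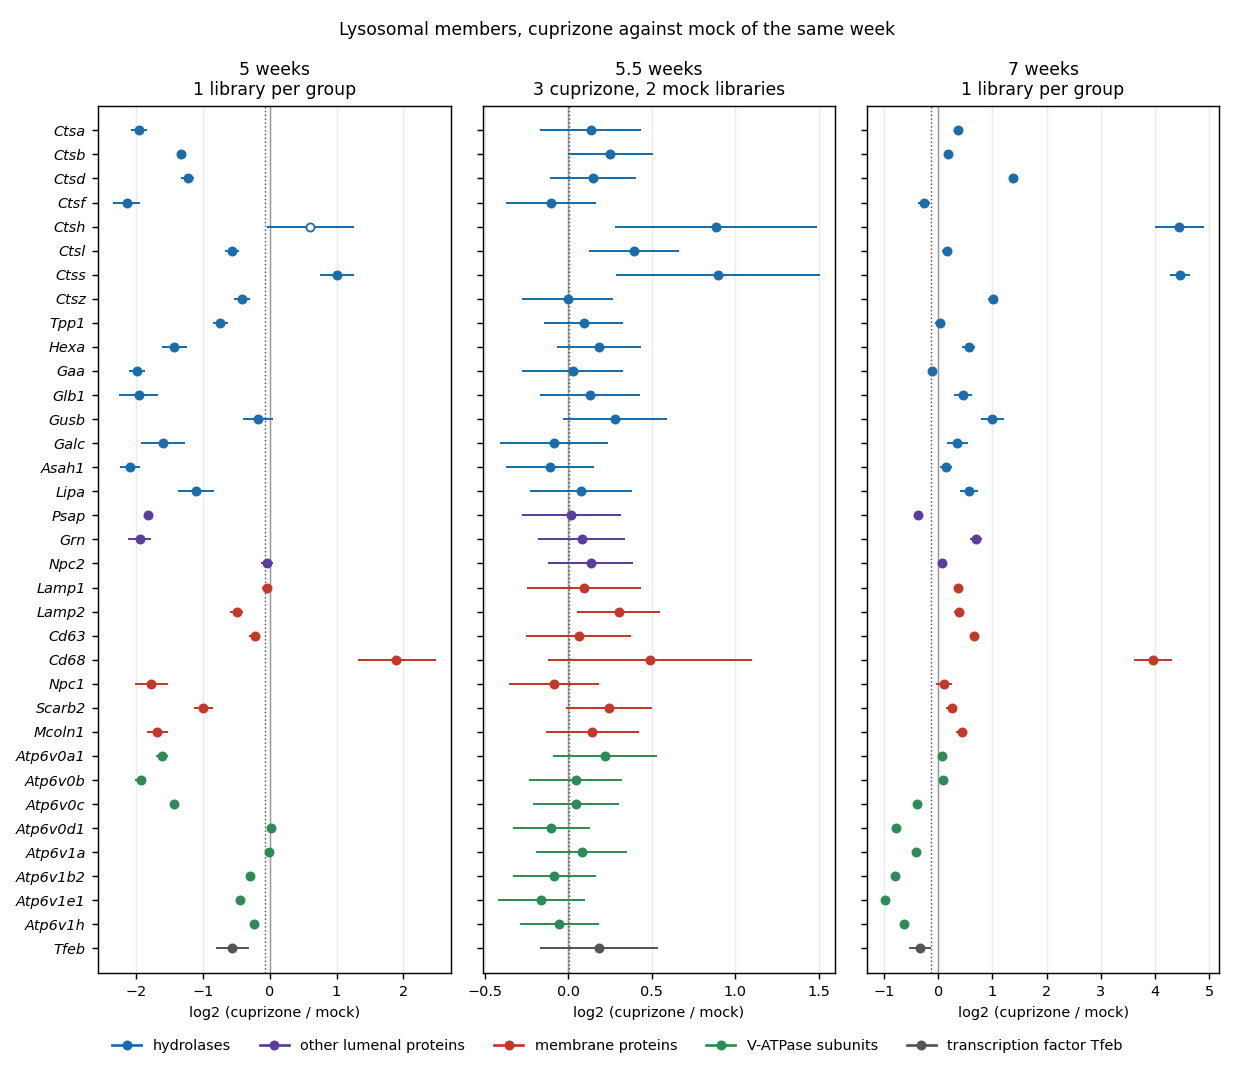
Log2 ratio of cuprizone over mock (x axis) for the 35 genes (y axis, by class) at 5, 5.5 and 7 weeks. Lines are 95% intervals, of counting error only at 5 and 7 weeks and of the edgeR fit at 5.5 weeks; the open circle marks Ctsh, below the CPM limit at 5 weeks; dotted lines mark the median of all genes; the x scales differ. At 5 weeks 17 genes lie at or below −1, at 5.5 weeks no gene passed the adjusted threshold, and at 7 weeks Ctsh, Ctss and Cd68 lie near 4.

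Of the 15 hydrolases measured at 5 weeks, 10 were at least 2-fold lower after cuprizone and none was at least 2-fold higher, with a median log2 ratio of −1.33. Ctsb (ENSMUSG00000021939, chromosome 14), a cysteine protease, stood at 436 CPM after cuprizone, against 1093 CPM in mock, which is 2.51-fold (95% interval 2.45 to 2.57) lower after cuprizone. The aspartic protease Ctsd (ENSMUSG00000007891, chromosome 7) stood at 69.3 CPM after cuprizone, against 163 CPM in mock, or 2.35-fold (95% interval 2.21 to 2.496) lower. Both main cathepsins were thus lower by more than counting error, in a pair of libraries of nearly equal depth. Reads of Ctsb and Ctsd are partly uncertain, because 774 bases of the Ctsb exons overlap Fdft1 on the opposite strand and 808 bases of the Ctsd exons overlap the predicted gene Gm49369 on the same strand.

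The lowest ratios among hydrolases belonged to Ctsf, a cysteine protease, with 13.3 CPM after cuprizone, against 58.7 CPM in mock (log2 ratio −2.13), and to Asah1, the acid ceramidase, with 23.1 CPM after cuprizone, against 98.4 CPM in mock (−2.09). Gaa, which digests glycogen, had 42.8 CPM after cuprizone, against 170.4 CPM in mock (−1.99), and Ctsa, the protective protein of the galactosidase complex, had 40.2 CPM after cuprizone, against 157 CPM in mock (−1.96). All 4 lay far outside counting error. The enzymes of sphingolipid breakdown followed: Glb1, the beta-galactosidase, had 6.15 CPM after cuprizone, against 24.0 CPM in mock (−1.95), Galc had 5.12 CPM after cuprizone, against 15.5 CPM in mock (−1.58) and Hexa, the alpha subunit of hexosaminidase, had 17.6 CPM after cuprizone, against 47.5 CPM in mock (−1.43). Lipa, the acid lipase that frees cholesterol from its esters, had 8.24 CPM after cuprizone, against 17.7 CPM in mock (−1.10).

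The other 5 measured hydrolases were within 2-fold of mock. The protease Tpp1 had 62.2 CPM after cuprizone, against 104 CPM in mock (log2 ratio −0.74), Ctsl 81.2 CPM after cuprizone, against 121 CPM in mock (−0.57) and Ctsz 54.6 CPM after cuprizone, against 72.8 CPM in mock (−0.42). Gusb, the beta-glucuronidase, had 16.5 CPM after cuprizone, against 18.6 CPM in mock, a difference within its counting interval. Ctss (ENSMUSG00000038642, chromosome 3), a cathepsin of microglia and macrophages, was the one measured hydrolase with a ratio above 1: 21.7 CPM after cuprizone, against 10.8 CPM in mock. Its ratio was 2.01-fold (95% interval 1.71 to 2.36) by the counts and just under 2-fold with the prior count of 2 that set the limit. Ctsh, with 2.58 CPM after cuprizone, against 1.71 CPM in mock, was too low to be measured.

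Microglial markers moved in the same direction as Ctss and Cd68 at 5 weeks. The summed level of 15 of them was 99.4 CPM after cuprizone and 40.6 CPM in mock, and of the 7 that were measured (5 of them only through the cuprizone library) 5 were at least 2-fold higher, among them C1qa with 10.6 CPM after cuprizone, against 2.93 CPM in mock. Itgam was at 0 in both libraries. Their part in the ratios of Ctss and Cd68 was not tested. Oligodendrocyte markers moved with the lower hydrolases, with 8 of 12 at least 2-fold lower after cuprizone, and neuronal markers with 3 of 10, and the part of these cells was not tested either.

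The 3 other lumenal proteins did not move alike at 5 weeks. Psap (ENSMUSG00000004207, chromosome 10) stood at 525 CPM after cuprizone, against 1863 CPM in mock, 3.55-fold (95% interval 3.48 to 3.62) lower after cuprizone. Grn, the progranulin precursor, had 18.8 CPM after cuprizone, against 72.5 CPM in mock (log2 ratio −1.95). Npc2, a small carrier of cholesterol within the lumen, had 129.6 CPM after cuprizone, against 133 CPM in mock (−0.04), a difference within counting error. Psap and Grn thus lay in the range of the lower hydrolases, and Npc2 did not.

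Among the 7 membrane proteins, 2 were at least 2-fold lower, 1 was at least 2-fold higher and the median log2 ratio was −0.50. Npc1, the membrane partner of Npc2 in cholesterol export, had 9.13 CPM after cuprizone, against 31.3 CPM in mock (−1.77), and the lysosomal calcium channel Mcoln1 had 22.4 CPM after cuprizone, against 72.0 CPM in mock (−1.68). Scarb2, the receptor that carries glucocerebrosidase to the lysosome, had 36.2 CPM after cuprizone, against 72.2 CPM in mock and lay just inside the 2-fold limit (−0.99). The abundant coat proteins of the lysosomal membrane were closer to mock. Lamp1 had 196 CPM after cuprizone, against 202 CPM in mock (−0.04), Lamp2 79.6 CPM after cuprizone, against 112 CPM in mock (−0.50) and the tetraspanin Cd63 147 CPM after cuprizone, against 171 CPM in mock (−0.23). Cd68 (ENSMUSG00000018774, chromosome 11), a scavenger-type membrane protein of phagocytes, had 6.15 CPM after cuprizone, against 1.66 CPM in mock, 3.71-fold (95% interval 2.53 to 5.56) higher. Cd68 passed the CPM limit only through the cuprizone library, so its being measured already required a difference.

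The V-ATPase subunits did not move alike at 5 weeks. The 3 membrane-spanning V0 subunits of the set were all at least 2-fold lower after cuprizone: Atp6v0a1 had 83.0 CPM after cuprizone, against 255 CPM in mock (log2 ratio −1.62), Atp6v0b 108 CPM after cuprizone, against 412 CPM in mock (−1.93) and the proton-carrying ring subunit Atp6v0c 233 CPM after cuprizone, against 629.9 CPM in mock (−1.43). Atp6v0d1, the V0 subunit that has no membrane span and joins the ring to the rotor, had 484 CPM after cuprizone, against 479 CPM in mock (0.01). None of the 4 V1 subunits was at least 2-fold apart. The catalytic subunit Atp6v1a had 661 CPM after cuprizone, against 666 CPM in mock (−0.01), its partner Atp6v1b2 1169.9 CPM after cuprizone, against 1434 CPM in mock (−0.29), the stator Atp6v1e1 755 CPM after cuprizone, against 1027 CPM in mock (−0.44) and the regulatory subunit Atp6v1h 304 CPM after cuprizone, against 359 CPM in mock (−0.24). The median log2 ratio was −1.53 for the 4 V0 subunits and −0.27 for the 4 V1 subunits. The 3 measured membrane-spanning V0 genes outside the set were all within 2-fold of mock. Atp6v0a2 had 42.6 CPM after cuprizone, against 67.1 CPM in mock (−0.66), Atp6v0e2 556 CPM after cuprizone, against 741 CPM in mock (−0.42) and Atp6v0e was above mock with 92.0 CPM after cuprizone, against 65.9 CPM in mock (0.48), so the lower V0 values were not a property of the whole sector.

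**Figure D2:**
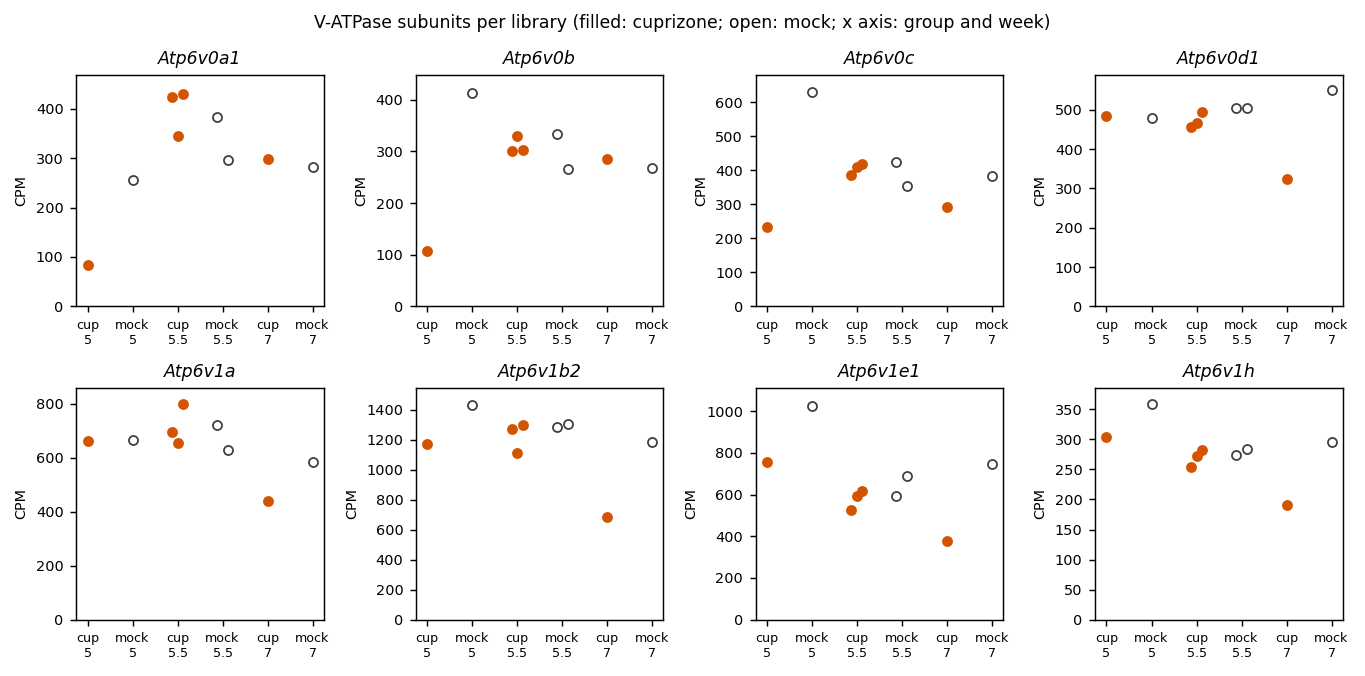
Level in CPM (linear y axis from 0) of the 8 V-ATPase subunits in each of the 9 libraries, with cuprizone filled, mock open, and the week under each group. Atp6v0a1, Atp6v0b and Atp6v0c are low in the 5-week cuprizone library, and Atp6v0d1 and the 4 V1 subunits are low in the 7-week cuprizone library.

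The 35 genes were also divided by where the protein is made, a grouping that was chosen after the values were seen. Hydrolases, lumenal proteins, membrane proteins and the membrane-spanning V0 subunits are made at the endoplasmic reticulum, whereas the V1 subunits, Atp6v0d1 and Tfeb are made in the cytosol. Of the 28 measured genes of the first kind 17 were at least 2-fold lower at 5 weeks (median log2 ratio −1.38), and of the 6 of the second kind none was (median −0.27). Other lysosomal, sorting and autophagy genes divided the same way. Of 59 measured genes whose proteins are made at the endoplasmic reticulum 39 were at least 2-fold lower (median −1.35), and of 36 whose proteins are made in the cytosol none was (median −0.08). Oligodendrocyte markers did not divide as cleanly. The membrane proteins Mal (29.98 CPM after cuprizone, against 634 CPM in mock) and Mog (62.5 CPM after cuprizone, against 365 CPM in mock) were at least 2-fold lower, and Mbp (4999 CPM after cuprizone, against 4715 CPM in mock) and Cnp (2139 CPM after cuprizone, against 1722 CPM in mock), which are made in the cytosol, were not. Aspa (log2 ratio −2.84) and Ermn (−1.59), also made in the cytosol, were at least 2-fold lower. With 1 cuprizone library, its treatment and any property of its preparation cannot be told apart.

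**Figure D3:**
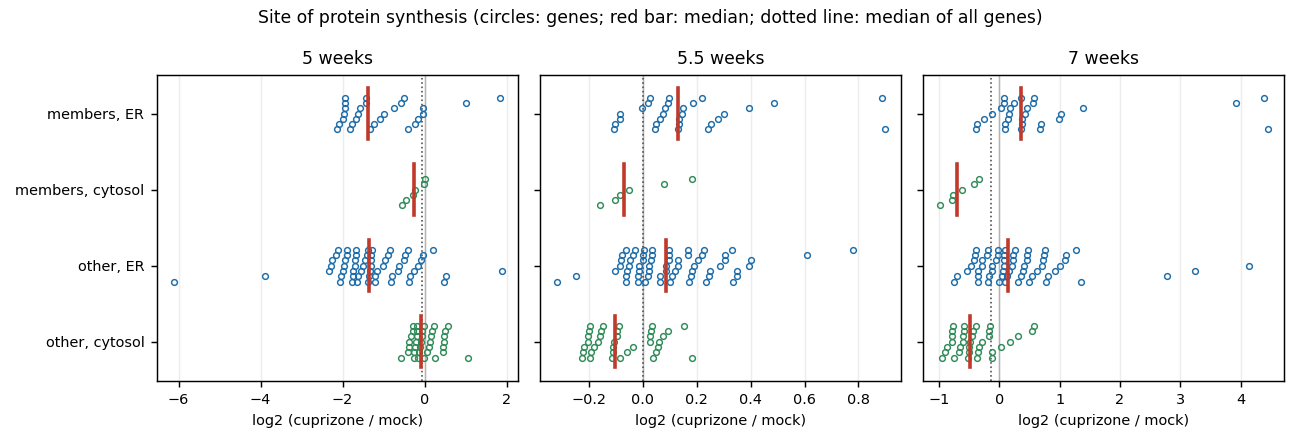
Log2 ratio of cuprizone over mock (x axis, scales differ between weeks) for the 35 genes and for other lysosomal, sorting and autophagy genes, divided by whether their proteins are made at the endoplasmic reticulum (ER) or in the cytosol. Circles are genes, red bars medians, dotted lines the median of all genes. At 5 weeks the medians of ER-made proteins are −1.38 and −1.35 and those of cytosolic proteins −0.27 and −0.08; the leftmost circle is Manba, which had no count in the cuprizone library.

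Among 28 measured hydrolases outside the set, 20 were at least 2-fold lower at 5 weeks (median log2 ratio −1.36). Manba, the beta-mannosidase, had no count in the cuprizone library and 5.37 CPM in mock, at least 40.2-fold lower when the empty library is set to 3 counts. Hgsnat had 16.5 CPM after cuprizone, against 83.0 CPM in mock and Gla, the alpha-galactosidase, had 2.76 CPM after cuprizone, against 13.7 CPM in mock. Of 19 measured membrane proteins 12 were at least 2-fold lower, with the amino acid transporters Slc38a9 and Slc36a1 and the Lamp1 relative Lamp5 lowest (log2 ratios −2.26, −2.06 and −1.98), and Laptm5, a protein of blood-derived cells and microglia, was higher with 5.97 CPM after cuprizone, against 1.56 CPM in mock. Of 10 other V-ATPase genes measured, the 2 that were at least 2-fold lower were the membrane-bound accessory subunits Atp6ap1 (181 CPM after cuprizone, against 677 CPM in mock) and Atp6ap2 (110.3 CPM after cuprizone, against 453 CPM in mock).

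The receptors that carry hydrolases to the lysosome were also lower after cuprizone. Igf2r, the large mannose 6-phosphate receptor, had 0.713 CPM after cuprizone, against 11.7 CPM in mock (log2 ratio −3.89), its small counterpart M6pr 61.0 CPM after cuprizone, against 158 CPM in mock (−1.37) and sortilin, Sort1, 43.3 CPM after cuprizone, against 161 CPM in mock (−1.89). Of 22 genes of sorting and lysosomal control 4 were at least 2-fold lower and 1 was higher, the tethering subunit Vps11 with 81.0 CPM after cuprizone, against 39.1 CPM in mock. Of 16 autophagy genes 1 was at least 2-fold lower, Atg9a, the membrane-spanning protein of the list, with 4.90 CPM after cuprizone, against 22.2 CPM in mock. The median log2 ratio was −0.13 for the sorting and control genes and −0.15 for the autophagy genes, and with plain CPM both turned to just above 0 (0.03 and 0.01).

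Tfeb itself had 11.5 CPM after cuprizone, against 16.9 CPM in mock at 5 weeks (log2 ratio −0.56). Of the 9 genes with the E-box motif in their promoter window 6 were at least 2-fold lower at 5 weeks, and of the 20 with a window and no motif 8 were. The 3 with the motif that were not 2-fold lower were Lamp1, which carries 4 copies, Atp6v0d1 and Atp6v1a.

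**Figure D4:**
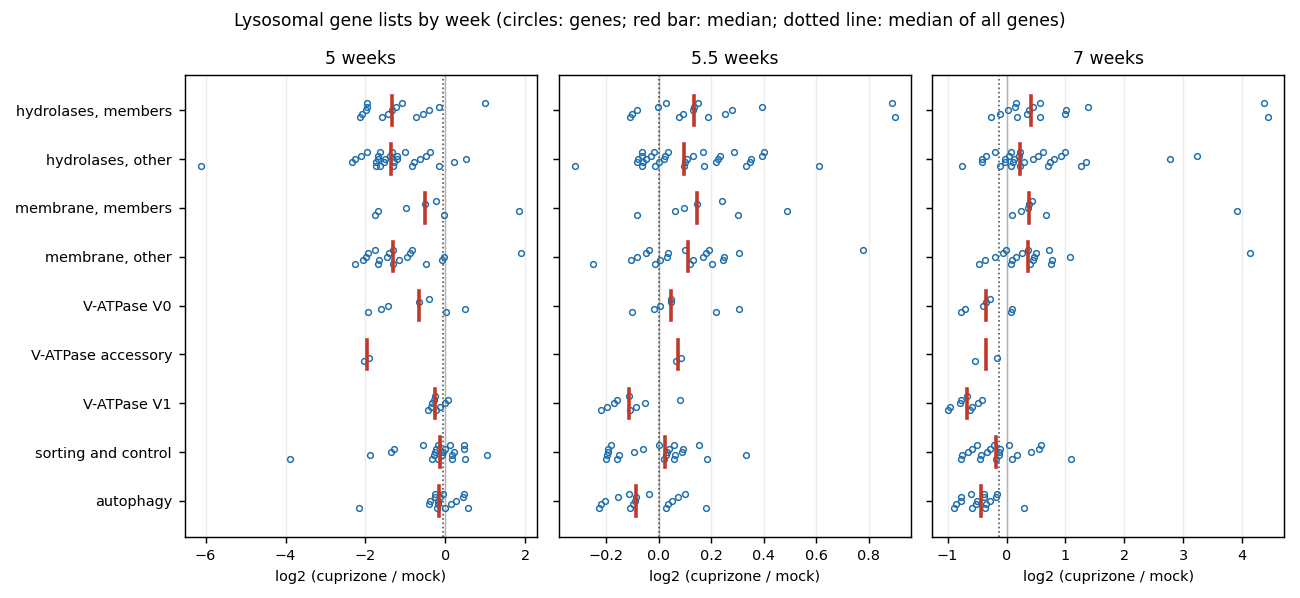
Log2 ratio of cuprizone over mock (x axis, scales differ between weeks) by gene list, with circles for genes, red bars for list medians and dotted lines for the median of all genes. At 5 weeks the medians of hydrolases (−1.33) and of other hydrolases (−1.36) lie below that of the V1 members (−0.27), and at 7 weeks the V1 members (median −0.71) lie below the hydrolases (0.42).

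The 5.5-week comparison addresses the start of remyelination and is the one with replicates. No lysosomal gene passed the test: 0 of 35 had an adjusted p under 0.05 in edgeR's quasi-likelihood test, against 1.47% of the 16086 genes tested (1.08% higher and 0.392% lower). At an unadjusted p under 0.05 there were 5, all higher after cuprizone, against 6.27% of all genes, and none lower, against 4.64%. DESeq2 called 1 (Ctss) and limma-voom 0. The number at an unadjusted p under 0.05 was 8 without mock library 1, 2 without mock library 3 and 3 without cuprizone library 3, with 0 past the adjusted threshold each time. In 9 of the 35 every cuprizone library lay above both mock libraries, against 13.7% of all genes, and in 1 every cuprizone library lay below both, against 13.7%. The p-values measure the spread between libraries that the labels call biological replicates.

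The 5 genes were 4 cathepsins and Lamp2. Ctss had 9.90, 16.2 and 8.35 CPM in the cuprizone libraries, against 5.21 and 7.05 CPM in the mock libraries. Ctsh had 2.502, 2.60 and 1.83 CPM after cuprizone, against 1.13 and 1.35 CPM in mock. Neither gene's groups overlapped, and in both the log2 fold change was near 0.9: 0.90 ± 0.27 for Ctss (SE; edgeR adjusted p = 0.192) and 0.89 ± 0.27 for Ctsh (edgeR adjusted p = 0.192). Ctsl had 111, 125 and 113 CPM after cuprizone, against 95.8 and 80.5 CPM in mock, a difference of 0.39 ± 0.12 on the log2 scale (SE; edgeR adjusted p = 0.188). Exons of Ctsl overlap the antisense gene Gm47123 over 1742 bases, so its reads are partly uncertain. Ctsb had 1207, 1221 and 1137 CPM after cuprizone, against 1061 and 924 CPM in mock, a difference of 0.25 ± 0.11 on the log2 scale (SE; edgeR adjusted p = 0.456). Lamp2, which also serves in chaperone-mediated autophagy, had 105, 112 and 107 CPM after cuprizone, against 92.3 and 81.8 CPM in mock, a difference of 0.30 ± 0.11 on the log2 scale (SE; edgeR adjusted p = 0.310). The cuprizone libraries lay above both mock libraries for each of these 3 as well.

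Microglial markers were also higher at 5.5 weeks. Their summed level was 41.9 to 62.1 CPM after cuprizone and 27.4 to 34.8 CPM in mock, and 8 of the 14 tested had an unadjusted p under 0.05, all higher, with none past the adjusted threshold. Of 8 tested markers of disease-associated microglia 6 had an unadjusted p under 0.05, all higher, and 4 passed the adjusted threshold in edgeR. The 4 were Lyz2 with 3.74, 6.45 and 3.94 CPM after cuprizone, against 0.708 and 0.577 CPM in mock, and Itgax, Clec7a and Spp1, which were at most 3.62 CPM in any library of the week. Of 12 oligodendrocyte markers 3 passed higher and 1 lower. Cuprizone library 2 had the highest microglial sum and also the highest Ctss (16.2 CPM) and Cd68 (4.36 CPM). That trait was not particular to these 2 genes. Among the 3 cuprizone libraries it was also the highest for Ctsa, Ctsd, Lamp1, Cd63, Scarb2 and others, and the lowest for some, such as Gaa and Atp6v0a1. The part of microglia and oligodendrocytes in the lysosomal values was not tested.

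The other hydrolases differed from mock by less than the test could resolve at 5.5 weeks, with a class median log2 fold change of 0.13. Gusb was among those whose groups did not overlap, with 14.3, 14.4 and 14.1 CPM after cuprizone, against 11.8 and 11.6 CPM in mock (0.28 ± 0.14, SE). Hexa had 48.9, 50.5 and 52.6 CPM after cuprizone, against 45.2 and 43.4 CPM in mock (0.19 ± 0.11), and Tpp1 had 107, 105 and 106 CPM after cuprizone, against 103 and 94.2 CPM in mock (0.09 ± 0.10). In Ctsa, Ctsd, Ctsf, Ctsz, Gaa, Glb1, Galc, Asah1 and Lipa the groups overlapped, and their log2 fold changes ran from −0.11 for Asah1 to 0.15 for Ctsd. For Ctsa, which was far below mock at 5 weeks, the 95% interval at 5.5 weeks was −0.16 to 0.43, for Gaa −0.27 to 0.32, for Asah1 −0.37 to 0.15 and for Psap −0.27 to 0.31 on the log2 scale. None of these intervals includes a difference as large as that between the 5-week libraries.

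Psap had 2171, 2256 and 2375 CPM after cuprizone at 5.5 weeks, against 2516 and 1931 CPM in mock, and the groups overlapped. Grn had a log2 fold change of 0.08 ± 0.12 and Npc2 of 0.13 ± 0.11 (SE). Among membrane proteins the median was 0.14. Scarb2 had 108, 120.4 and 108 CPM after cuprizone, against 99.8 and 88.5 CPM in mock (0.24 ± 0.11, SE), with all 3 cuprizone libraries above both mock libraries. Lamp1 (0.10 ± 0.15), Cd63 (0.06 ± 0.14), Cd68 (0.49 ± 0.28), Npc1 (−0.08 ± 0.12) and Mcoln1 (0.14 ± 0.12) overlapped between groups.

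The V-ATPase subunits differed from mock by less than the test could resolve at 5.5 weeks, with a median log2 fold change of −0.0036. Atp6v0d1 was the one gene of the 35 with every cuprizone library below both mock libraries: 455, 467 and 494 CPM after cuprizone, against 504 and 504 CPM in mock (−0.10 ± 0.10, SE; edgeR adjusted p = 0.776). The other 7 overlapped, from −0.16 for Atp6v1e1 to 0.22 for Atp6v0a1. Tfeb had 19.5, 20.4 and 16.1 CPM after cuprizone, against 14.4 and 18.3 CPM in mock (0.18 ± 0.16, SE), also overlapping. None of the 99 tested genes of the 5 lists of other lysosomal, sorting and autophagy genes passed the adjusted threshold in edgeR. At an unadjusted p under 0.05 there were 7, all higher, against 6.27% of all genes higher and 4.64% lower. In 17 of the 99 every cuprizone library lay above both mock libraries and in 11 below both, against 13.7% of all genes each way.

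The 7-week comparison addresses late remyelination. In the cuprizone library a small group of phagocyte cathepsins and Cd68 was far above mock, most other hydrolases and membrane proteins were slightly above it, and the V1 subunits of the V-ATPase were below it. All 35 genes were measured. Of these 5 were at least 2-fold higher, against 11.1% of 12058 genes measured, and none was at least 2-fold lower, against 3.33%. Ctsh and Cd68 passed the CPM limit only through the cuprizone library, so for these 2 of the 5 being measured already required a difference. The median log2 ratio was 0.18 over the 35 and −0.13 over all genes. Among all genes at least 2-fold apart, 76.9% were higher after cuprizone with TMM scaling and 95.2% with plain CPM, which put the all-gene median at 0.22.

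The 7-week cuprizone library differed from the others in what it contained. It had counts for 34576 genes, and the other 8 libraries had at most 23980. The 15 microglial markers summed to 936 CPM after cuprizone and 46.7 CPM in mock, and all 15 were at least 2-fold higher. Since 12 of the 15 passed the CPM limit only through the cuprizone library, that count is partly set by the limit; the 3 at or above it in mock (Csf1r, C1qb and C1qc) were also at least 2-fold higher. The 9 vascular markers summed to 506 CPM after cuprizone and 61.2 CPM in mock, and all 9 were at least 2-fold higher, 6 of which passed the limit only through the cuprizone library. The median log2 ratio was 4.27 for the microglial markers and 5.78 for the vascular markers. It was 5.42 for the 7 measured markers of disease-associated microglia, 5 of which passed the limit only through the cuprizone library. The log2 ratios of Ctss, Ctsh and Cd68, given next as folds, were 4.45, 4.38 and 3.92. The part of this library's content in the lysosomal values was not tested, and with 1 library per group cuprizone and the library cannot be told apart.

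Ctss stood at 266 CPM after cuprizone, against 12.1 CPM in mock at 7 weeks, 22.0-fold (95% interval 19.7 to 24.5) higher after cuprizone. Ctsh had 36.4 CPM after cuprizone, against 1.67 CPM in mock, 21.8-fold (95% interval 16.3 to 29.7) higher, and Cd68 had 42.7 CPM after cuprizone, against 2.75 CPM in mock, 15.5-fold (95% interval 12.4 to 19.7) higher. These 3 genes differed from the other 32 by their size of ratio, since the next largest was Ctsd. Ctsd had 340.4 CPM after cuprizone, against 131 CPM in mock, 2.61-fold (95% interval 2.51 to 2.71) higher, and Ctsz had 148 CPM after cuprizone, against 73.1 CPM in mock, 2.02-fold (95% interval 1.92 to 2.13) higher. Of the 5, Ctsz was the closest to the 2-fold limit. Gusb was just outside it, with 24.3 CPM after cuprizone, against 12.2 CPM in mock, 2.00-fold (95% interval 1.76 to 2.28) higher by the counts and just under 2-fold with the prior count.

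**Figure D5:**
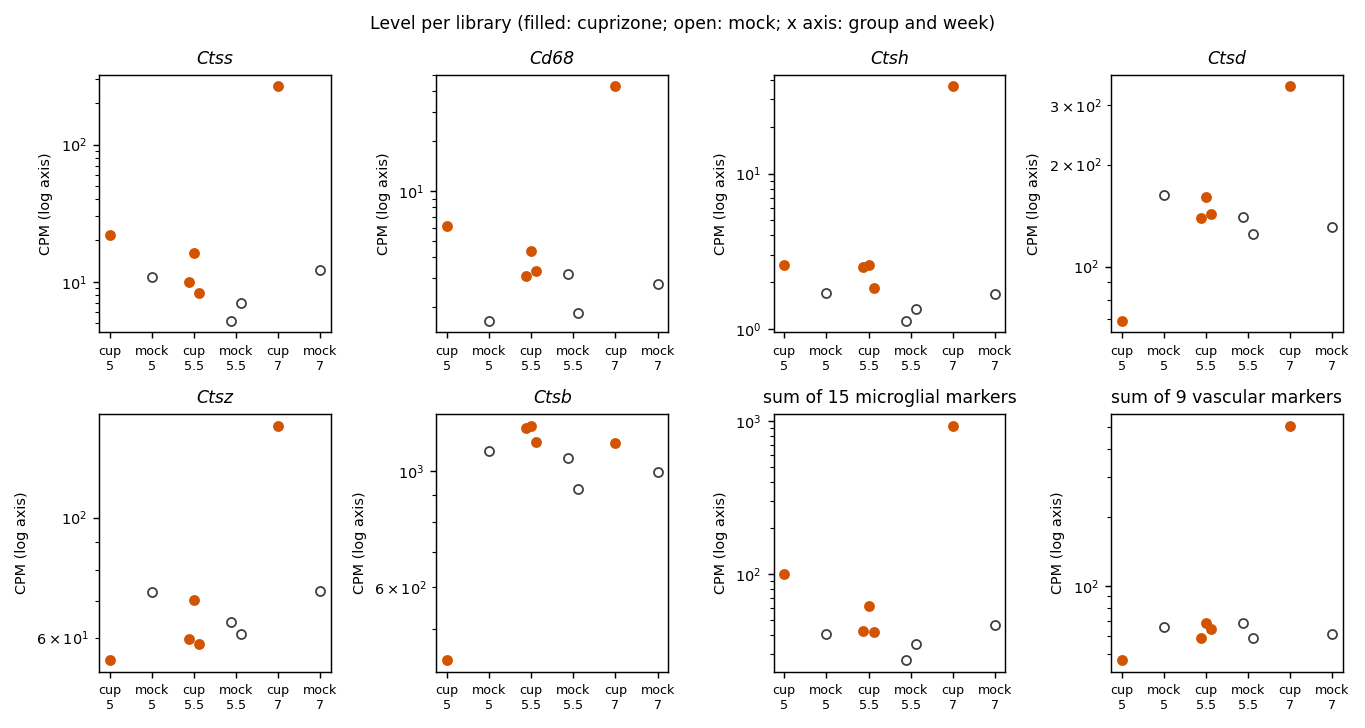
Level in CPM (log y axis) of 6 lysosomal genes and the summed level of microglial and vascular markers in each of the 9 libraries, cuprizone filled and mock open, with the week under each group. Ctss, Cd68 and Ctsh are highest in the 7-week cuprizone library, where both marker sums are also highest, and Ctsd and Ctsb are lowest in the 5-week cuprizone library.

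The remaining hydrolases were within 2-fold of mock at 7 weeks, and the class median log2 ratio was 0.42. Hexa had 72.7 CPM after cuprizone, against 49.2 CPM in mock (0.56), Lipa 32.7 CPM after cuprizone, against 22.0 CPM in mock (0.57) and Glb1 29.2 CPM after cuprizone, against 21.3 CPM in mock (0.46). Ctsa, Galc, Asah1, Ctsb, Ctsl and Tpp1 lay between 0.37 for Ctsa and 0.03 for Tpp1. Gaa (−0.12) and Ctsf (−0.26) were the 2 hydrolases with a ratio below 1. With plain CPM both were above 1, at 0.07 for Ctsf and 0.21 for Gaa on the log2 scale. Ctsf, Gaa and Asah1, the lowest hydrolases at 5 weeks, were thus all within 2-fold of mock at 7 weeks.

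Grn had 83.3 CPM after cuprizone, against 51.3 CPM in mock at 7 weeks (log2 ratio 0.70), Npc2 163 CPM after cuprizone, against 154 CPM in mock (0.08) and Psap 1561 CPM after cuprizone, against 2027 CPM in mock (−0.38). All 7 membrane proteins were above mock, with a median of 0.38. After Cd68 came Cd63 with 242 CPM after cuprizone, against 152 CPM in mock (0.67), Mcoln1 with 86.8 CPM after cuprizone, against 64.2 CPM in mock (0.43), Lamp2 with 111 CPM after cuprizone, against 85.3 CPM in mock (0.38) and Lamp1 with 279 CPM after cuprizone, against 218 CPM in mock (0.36). Scarb2 (0.25) and Npc1 (0.10) were nearest to mock.

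The V-ATPase went the other way from the hydrolases at 7 weeks, with a median log2 ratio of −0.52. Atp6v1e1 had 376 CPM after cuprizone, against 745 CPM in mock, 1.98-fold (95% interval 1.94 to 2.03) lower after cuprizone, and Atp6v1b2 had 684 CPM after cuprizone, against 1182 CPM in mock, 1.73-fold (95% interval 1.70 to 1.76) lower. Atp6v0d1 had 323 CPM after cuprizone, against 551 CPM in mock (−0.77). These 3, and also Atp6v1h and Atp6v1a, were lower in the 7-week cuprizone library than in all 8 other libraries. Atp6v1h (−0.62) and Atp6v1a (−0.41) were lower by less, and Atp6v0c had 292 CPM after cuprizone, against 384 CPM in mock (−0.39). Atp6v0a1 (0.08) and Atp6v0b (0.09), which were low at 5 weeks, were close to mock. With plain CPM the class median was −0.19, still below 0, while the all-gene median was 0.22. Neuronal markers had a median log2 ratio of −0.51 in the same pair, against −0.13 over all genes, and 1, Gad1, was at least 2-fold higher. With 6 of 10 below mock they were near the all-gene share, since 42.5% of all genes were above mock. Oligodendrocyte markers summed to 14145 CPM after cuprizone and 19674 CPM in mock, with 3 of 12 at least 2-fold lower. Their median log2 ratio was −0.14, near that of all genes. With plain CPM 1 of the 12 was at least 2-fold lower, 7 were above mock and the median was 0.19. Markers of oligodendrocyte precursors summed to 467 CPM after cuprizone, against 885 CPM in mock. The part of these cells in the V-ATPase values was not tested.

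Over the 5 lists of genes outside the set, 7 of 95 measured genes were at least 2-fold higher at 7 weeks, against 11.1% of all genes. None of the 7 was a V-ATPase or autophagy gene. With plain CPM the number of all genes at least 2-fold higher rose from 1336 to 2197. Of 29 measured other hydrolases 4 were (9 with plain CPM), among them the protease Ctsc with 38.6 CPM after cuprizone, against 5.54 CPM in mock and the mannosidase Man2b1 with 53.4 CPM after cuprizone, against 20.9 CPM in mock. Of 19 measured other membrane proteins 2 were (5 with plain CPM), Laptm5 with 63.0 CPM after cuprizone, against 3.52 CPM in mock and Slc38a9 with 23.1 CPM after cuprizone, against 10.8 CPM in mock. All 10 measured other V-ATPase genes had ratios below 1 (median log2 ratio −0.56), none of them at least 2-fold lower, and with plain CPM 8 of the 10 did. Of 16 autophagy genes 15 had ratios below 1 (median −0.44; 12 with plain CPM), and the receptor Sqstm1 had 431 CPM after cuprizone, against 800.1 CPM in mock. Among the sorting genes Igf2r was 2.16-fold (95% interval 1.86 to 2.504) higher after cuprizone. Tfeb had 15.6 CPM after cuprizone, against 19.6 CPM in mock (−0.33), a ratio that plain CPM brought to 1. Divided by site of synthesis, the median at 7 weeks was 0.36 for the 29 genes whose proteins are made at the endoplasmic reticulum and −0.70 for the 6 made in the cytosol.

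The cuprizone effect was also compared between weeks in a fit of the 9 libraries, which assumes that the lone libraries vary like those of the 5.5-week groups. Between 7 and 5.5 weeks the effect differed for 8 of the 35 genes at an adjusted p under 0.05 (edgeR). It was larger at 7 weeks for Ctsd, Ctsh, Ctss, Ctsz and Cd68, against 10.3% of all genes, and smaller for Atp6v0d1, Atp6v1b2 and Atp6v1e1, against 6.92%. The difference was 3.55 on the log2 scale for Ctsh and −0.83 for Atp6v1e1. With 1 library per group at 7 weeks the assumption about spread cannot be checked. Cuprizone and the differing content of the 7-week cuprizone library cannot be told apart in this contrast. Between 5 and 5.5 weeks it was smaller at 5 weeks for 21 genes, against 14.3% of all genes, and larger for Cd68 alone, against 8.91%. The 21 were 12 hydrolases, Psap and Grn, 4 membrane proteins (Lamp2, Npc1, Scarb2 and Mcoln1) and the 3 membrane-spanning V0 subunits. No V1 subunit was among them. Because the 5-week libraries are all of batch 1, week and batch cannot be told apart in this comparison.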

How the data were processed

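RNA pulled down with tagged ribosomes was sequenced in 17 corpus callosum libraries. Per the submitters' processing notes, the authors used FastQC 0.11.9, STAR 2.5.4b and featureCounts 1.6.0. The notes name the builds GRCm38 (mm10) and GRCm39 (mm39) without a role, so no gene coordinates are given from the files, and whether counting used strand is not given in the sources used here. The deposited values of 9 libraries are raw counts per Ensembl gene, not normalized. The deposited values of the other 8 libraries are whole numbers of no stated unit: between 46.6% and 96.2% of their genes with at least 500 counts lie 1 to 10 above another library of the group. These 8 were used only in alternatives.

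Symbols, chromosomes, exon lengths and overlaps came from GENCODE M21. At 5.5 weeks 16086 genes passed filterByExpr (minimum count 10) and were tested with edgeR 4.0.16 (two-sided quasi-likelihood F test, robust dispersion, TMM, Benjamini-Hochberg over all genes, threshold 0.05). At 5 and 7 weeks log2 ratios of TMM-scaled CPM used a prior count of 2, a minimum of 5 CPM in either library and a 2-fold limit. DESeq2 1.42.0 and limma 3.58.1 served as alternatives. The test was tried on simulated data. Intervals and floors of 3 counts cover counting error only. All 35 genes are named; of the other lists, up to 3 genes at each end among those at least 2-fold apart are named per week, except items that are not reported here. The genes, lists and tests were chosen with earlier results of these data known. Promoter windows are RefSeq's, build GRCm38.p6.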

Additional observations from a re-analysis of the deposited data

Results flagged for a closer look

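All values here are differences of the cuprizone effect (log2 of cuprizone over mock) between 2 weeks, and each was singled out because a contrast of the 2 effects in the fit of 9 libraries had an edgeR adjusted p under 0.05. The spread was borrowed from the 5.5-week groups, since 5 and 7 weeks have 1 library per group, and this contrast was chosen after seeing the data.

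At 5 weeks minus 5.5 weeks, the hydrolases with a difference were Glb1 (−2.11), Ctsa (−2.10), Ctsf (−2.04), Gaa (−2.03), Asah1 (−1.99), Hexa (−1.62), Ctsb (−1.59), Galc (−1.52), Ctsd (−1.39), Lipa (−1.19), Ctsl (−0.97) and Tpp1 (−0.84). Among the other lumenal proteins they were Grn (−2.04) and Psap (−1.86). Among membrane proteins they were Mcoln1 (−1.84), Npc1 (−1.70), Scarb2 (−1.25), Lamp2 (−0.81) and, in the other direction, Cd68 (1.39). The V0 subunits were Atp6v0b (−1.99), Atp6v0a1 (−1.85) and Atp6v0c (−1.49).

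At 7 weeks minus 5.5 weeks, the effect was larger for Ctss (3.56), Ctsh (3.55), Cd68 (3.46), Ctsd (1.23) and Ctsz (1.01). It was smaller for Atp6v1e1 (−0.83), Atp6v1b2 (−0.71) and Atp6v0d1 (−0.67).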

How the results depend on the processing

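At 5.5 weeks edgeR called 173 genes higher and 63 lower after cuprizone. These were 381 and 162 with no filter on low counts, 614 and 175 in a fit of all 17 libraries, and 314 higher with the 6 libraries of the week as deposited. Leaving out 1 library gave 49 to 189 higher and 16 to 85 lower (57 and 31 without mock 1, 49 and 16 without mock 3, 113 and 17 without cuprizone 1, 24 lower without cuprizone 3). Of the 35 genes, 0 were called, 0 in every fit without 1 library, and 1 with no filter and with DESeq2 (Ctss each time). The fit of all 17 libraries called 5 (Ctsh, Ctsl, Ctss, Gusb and Lamp2), with libraries in it that repeat one another. Without 1 library the class medians ran from 0.054 to 0.24 for hydrolases, 0.15 to 0.33 for membrane proteins and −0.059 to 0.063 for V-ATPase subunits. With the replicate number as a block, edgeR called 481 genes higher and 269 lower, and none of the 35. Only 2 numbers are shared between the groups and same-numbered libraries hardly deviated together (r = 0.04 and −0.08 across genes), so the libraries share only a number.

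At 5 weeks 17 genes were at least 2-fold lower, and 16 or 17 in the alternatives that used the 2-fold limit; by adjusted p in the fit of 9 libraries 21 were lower. The number at least 2-fold higher was 1, and 2 with plain CPM, with a prior count of 0.5, with the mean of all deposited libraries and with TMM within the 2 libraries (the last chosen after seeing the data). Plain CPM moved the medians of hydrolases, membrane proteins and V-ATPase subunits to −1.16, −0.34 and −0.21, and TMM within the pair moved that of the V-ATPase to −0.31. At 7 weeks plain CPM gave 0.74, 0.71 and −0.19, the mean of deposited libraries gave −0.46 for the V-ATPase, and the 5.5-week mock libraries in place of the 7-week one, chosen after seeing the data, gave −0.58. The number of genes higher at 7 weeks was 5, and 10 by adjusted p in the fit of 9 libraries, which also called 4 lower; TMM within the pair gave 1 lower. No gene at least 2-fold apart at 5 or 7 weeks changed direction, in alternatives that mostly rescale the same 2 libraries. At 5.5 weeks none of the 35 was called, so none could be reversed. Signs of smaller values did change. Leaving out 1 library at 5.5 weeks changed the sign of 2 (without cuprizone 1 or 2) to 10 (without mock 3) of the 35. Plain CPM changed the sign of 3 at 5 weeks and of 3 at 7 weeks. The cause of these moves was not tested. With 1 library per group, depth limits only the counting error of the 5-week and 7-week ratios, and the spread between mice is unknown.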
